A study of Homo sapiens with 6 samples.

Results

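The unfolded protein response and the ATF4 stress pathway were examined here through 10 genes: ATF4, DDIT3, ASNS, TRIB3, CHAC1, HSPA5, XBP1, HERPUD1, DNAJB9 and PPP1R15A. They were chosen by gene symbol, and each symbol named 1 row among the 57150 rows of the deposited RNA-seq table. The cells were K562, a line of human erythroleukemia origin. In 3 pools both αCP1 and αCP2 were targeted by siRNAs, and 3 further pools received control siRNAs. Both groups were harvested 72 h after transfection. αCP1 and αCP2 are poly(C)-binding KH proteins encoded by PCBP1 and PCBP2, and the study asked how their loss alters splicing. The table gives 1 value per gene for each group, in columns labelled KD (αCP1/2 siRNAs) and CTRL. These are named here the KD and CTRL columns by those labels. There is therefore no replicate spread for any value below and no test. The counting intervals given treat the estimated counts of the table as plain read counts and cover no other error. Which pools entered those counts, and how they were joined or scaled, is not given. The counting error of the reads themselves may therefore differ.

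Cells under stress slow general translation by phosphorylating the initiation factor eIF2, while the mRNA of the transcription factor ATF4 is translated more. ATF4 then turns on genes for amino acid supply and, with its partner CHOP (DDIT3), genes that end or redirect the response. When unfolded proteins collect in the endoplasmic reticulum (ER), the sensors PERK, IRE1 and ATF6 act together: PERK phosphorylates eIF2, IRE1 removes a short intron from XBP1 mRNA, and the ATF6 and XBP1 proteins raise ER chaperones. mRNA levels alone report neither eIF2 phosphorylation nor ATF4 translation.

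The column labels were checked first against the siRNA targets. FPKM, the fragments of a gene scaled to transcript length and sequencing depth, was 184 (KD) and 188 (CTRL) for PCBP1. For PCBP2 it was 531 and 342. PCBP1 was thus about level and PCBP2 higher under the KD label, and each direction below is that of the labels as given. Pairs of values are given in the order KD, CTRL throughout. The cell type was checked against erythroid markers: 7 of 14 were listed at 0 in both columns, among them GATA1, TAL1 and KLF1, and 2, HBE1 and TFRC, were over 5 in both. The summed FPKM of this list was 295 and 109, and most of it came from HBE1 (153 and 35.4) and TFRC (134 and 65.7). The mean FPKM of 10 of the 14 was under 1. The part of this list in the values below was not tested. Of 8 epithelial markers, 4 were over 5 in both columns. Estimated counts added up to 13699340 (KD) and 11680567 (CTRL). Each total is below the mapped read pairs that the authors list for any single library. What this difference reflects was not tested.

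Short promoter elements are bound by the factors of the ATF4 arm and the ER arm, and matches to them are shown here. They do not sort the 10 genes into arms, since HERPUD1 holds elements of both and other genes hold none. RefSeq windows (GRCh38.p14) from 250 bases before to 50 bases after a gene's start were searched on both strands. The C/EBP-ATF response element (CARE), bound by ATF4 with a C/EBP partner, was searched as TGATGNAA. The ER stress response element (ERSE), bound by ATF6 and XBP1 with NF-Y, was searched as CCAAT followed after 9 bases by CCACG. Its second form, ERSE-II, was searched as ATTGG, any 1 base, and CCACG. A further element, the UPRE, was searched as TGACGTGG and matched no window of the 10 genes. Of 35116 windows of this length, 3.62% held the CARE letters, 0.0769% the ERSE, 0.0541% the ERSE-II and 0.729% the UPRE. Matches lay in the windows of 5 of the 10 genes, and capitals mark them below. On CHAC1 and HERPUD1 the CARE reads TTGCATCA because it lies on the opposite strand. The stretches are chr7:97872449-97872496 (minus strand) for ASNS, chr15:40953242-40953289 (plus) for CHAC1, chr16:56931946-56932055 (plus) for HERPUD1, chr9:125241371-125241429 (minus) for HSPA5 and chr22:28800583-28800641 (minus) for XBP1.
ASNS, CARE: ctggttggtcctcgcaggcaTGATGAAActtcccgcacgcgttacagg
CHAC1, CARE: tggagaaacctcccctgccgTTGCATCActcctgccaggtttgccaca
HERPUD1, CARE then ERSE-II: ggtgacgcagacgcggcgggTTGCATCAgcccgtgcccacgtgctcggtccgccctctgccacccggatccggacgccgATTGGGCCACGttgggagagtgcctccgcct
HSPA5, ERSE: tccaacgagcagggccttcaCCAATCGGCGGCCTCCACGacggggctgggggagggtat
XBP1, ERSE: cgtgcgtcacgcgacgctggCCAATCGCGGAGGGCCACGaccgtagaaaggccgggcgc
The windows of ATF4, DDIT3, TRIB3, DNAJB9 and PPP1R15A held none of these letters, which says nothing of sites outside the window.

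All 10 genes were detected, and 8 had an FPKM over 5 in both columns. HSPA5 and ATF4 were the most abundant in both columns, and CHAC1 was the least abundant in both. The order of FPKM in the CTRL column was HSPA5, ATF4, XBP1, HERPUD1, ASNS, DDIT3, PPP1R15A, DNAJB9, TRIB3 and CHAC1. In that column the 95% exact Poisson intervals of neighbours overlapped only for XBP1 with HERPUD1 and for DDIT3 with PPP1R15A. In the KD column, ATF4 stood above HSPA5, PPP1R15A above DDIT3, and TRIB3 above DNAJB9, each the opposite of the order under the CTRL label. There the intervals of neighbours overlapped for ASNS with PPP1R15A and for DDIT3 with TRIB3. Together the 10 genes took 0.115% of the counts in the KD column and 0.142% in the CTRL column. A level here is summed over all cells, so fewer expressing cells and less RNA per cell cannot be told apart.

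**Figure D1:**
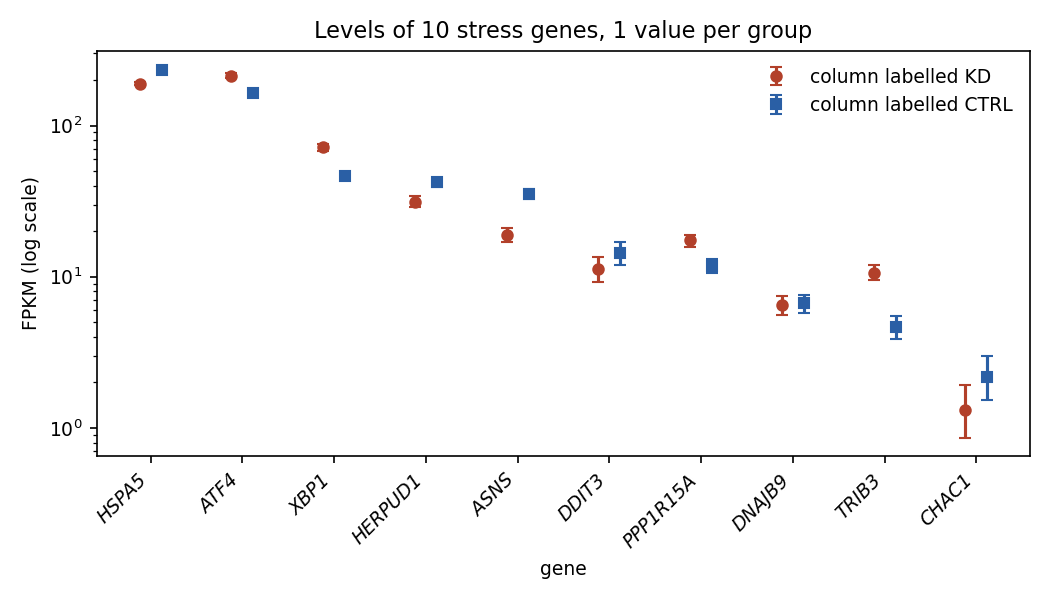
FPKM (log axis) of the 10 genes in the KD (circles) and CTRL (squares) columns, 1 value per group, with 95% exact Poisson intervals of the counts, ordered by level under the CTRL label. Levels run from 1.32 for CHAC1 to 231 for HSPA5, and the columns stand furthest apart at TRIB3 and ASNS.

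Differences are given as the log2 ratio of (FPKM + 1), KD over CTRL. The added 1 makes differences of genes of low FPKM look smaller. Over the 13741 genes whose mean FPKM reached 1, the median was 0.01, and 7016 of them had a ratio above 0. By this measure 4 of the 10 genes were higher and 6 lower in the KD column, with a median of -0.16. That median had no fixed direction: after adjustment for GC content and length it was 0.09, against 0.06 for all genes. A log2 ratio of 1 or more was reached by 1 of the 10, TRIB3, against 8.51% of all genes, and a log2 ratio of -1 or less by 0 of 10, against 3.27% of all genes. The share of genes past the fold was thus near the background in both directions. A second measure, the log2 ratio of each gene's share of its column's counts, carries a 95% exact binomial (Clopper-Pearson) interval and had a median of -0.21 over all genes. The intervals of ATF4, TRIB3, XBP1 and PPP1R15A lay wholly above that median and those of ASNS, HSPA5 and HERPUD1 wholly below it. DDIT3, CHAC1 and DNAJB9 had intervals that included it.

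ATF4 (ENSG00000128272, chr22:39915700-39918688 in GRCh37), the transcription factor at the centre of the pathway, was at an FPKM of 214 (KD) and 164 (CTRL), with 3363 and 2562 counts. It was thus 1.31-fold higher under the KD label, a log2 ratio of 0.38. Of all genes, 27.9% had a higher ratio. The ratio of count shares was 0.16, with an interval of 0.09 to 0.24. When FPKM was rescaled to the same sum in both columns the ratio was 0.02 and the median of all genes -0.30. Relative to that median ATF4 was then 0.32 higher, against 0.37 before rescaling.

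The genes downstream of ATF4 did not share a direction. TRIB3 (ENSG00000101255, chr20:343479-378203), a pseudokinase that restrains ATF4 and CHOP activity, had an FPKM of 10.7 and 4.66, from 307 and 134 counts. Its log2 ratio of 1.04 was the highest of the 10, and 7.78% of all genes had a higher one. PPP1R15A (ENSG00000087074, chr19:49375469-49379316), also known as GADD34, directs the phosphatase that reverses eIF2 phosphorylation. It had an FPKM of 17.4 and 11.8, from 471 and 321 counts, a log2 ratio of 0.52. Both of these feedback genes were therefore higher in the KD column, as ATF4 was. The intervals of the ratio of count shares were 0.67 to 1.27 for TRIB3 and 0.12 to 0.53 for PPP1R15A.

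ASNS (ENSG00000070669, chr7:97480989-97501854), which makes asparagine and carries the CARE shown above, lay at the other end. Its FPKM was 19.0 under the KD label and 35.02 under the CTRL label, from 339 and 667 counts, a log2 ratio of -0.85. Of all genes, 5.24% had a lower ratio. The ratio of count shares was -1.21, with an interval of -1.40 to -1.02. CHAC1 (ENSG00000128965, chr15:41245160-41248710), which degrades glutathione and also carries the CARE, had an FPKM of 1.32 and 2.17, a log2 ratio of -0.45. With 26 and 38 counts its interval of -1.56 to -0.02 was the widest of the 10. With a pseudocount of 0.1 in place of 1 its log2 ratio was -0.68. The 3 genes with a CARE in the window, HERPUD1 included, were all lower in the KD column by FPKM, while ATF4 mRNA was higher. For CHAC1 the interval of count shares included the median of all genes. TRIB3, with no CARE in its windows, was higher, and sites outside the windows were not searched.

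DDIT3 (ENSG00000175197, chr12:57910371-57915520) encodes CHOP, the transcription factor tied to cell death under lasting stress. Its FPKM was 11.3 (KD) and 14.3 (CTRL), with 110 and 135 counts, a log2 ratio of -0.32. The gene runs antisense to MARS, the methionyl-tRNA synthetase, and 27.2% of its exonic bases in GENCODE release 44, 355 in all, also lie in MARS exons. A further 4.4% lie in exons of MBD6. MARS was at an FPKM of 79.2 and 131, a log2 ratio of -0.71. MBD6 was at 9.81 and 4.22. The deposited table gives the locus of DDIT3 as chr12:57853917-57914300, which reaches well beyond the gene. No source used here states that strand was used in counting, so reads of DDIT3 and MARS in the shared bases cannot be told apart.

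On the ER side, XBP1 and HSPA5 lay on opposite sides of the median of all genes, and both carry an exact ERSE. XBP1 (ENSG00000100219, chr22:29190543-29196585), the transcription factor activated by IRE1, had an FPKM of 71.9 under the KD label and 46.5 under the CTRL label, from 1511 and 973 counts. This was a log2 ratio of 0.62, with 18.3% of all genes higher. HSPA5 (ENSG00000044574, chr9:127997132-128003661) encodes BiP, the main ER chaperone, which also holds the sensors inactive. Its FPKM was 189 and 231, from 8910 and 10898 counts, a log2 ratio of -0.29, and 28.2% of all genes had a lower one. The intervals of the ratio of count shares were 0.29 to 0.52 for XBP1 and -0.56 to -0.48 for HSPA5.

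HERPUD1 (ENSG00000051108, chr16:56966054-56978776), a membrane protein of ER-associated degradation with both a CARE and an ERSE-II, had an FPKM of 31.4 and 42.0, from 535 and 692 counts, a log2 ratio of -0.41. The interval of its ratio of count shares was -0.77 to -0.44. DNAJB9 (ENSG00000128590, chr7:108210311-108215294), the BiP co-chaperone ERdj4, had an FPKM of 6.47 and 6.67, from 207 and 213 counts. Its log2 ratio of -0.04 was the closest to 0 of the 10. DNAJB9 was the single gene of the 10 whose sign depended on the processing, at 0.26 after adjustment for GC content and length. The table gives its locus as chr7:108110865-108215294, which starts well before the gene.

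The XBP1 value is that of the whole gene. IRE1 removes 26 nt of the coding sequence, annotated in GRCh37 at chr22:29192116-29192141 as an intron of another XBP1 transcript. The annotated stretch is shown in capitals with 15 bases on each side, read on the minus strand (chr22:29192101-29192156). A G opens the capitals and another G follows them, so removal of 26 nt starting 1 base later leaves the same mRNA. The annotation therefore does not place the cut sites of IRE1 to the base.
XBP1, intron removed by IRE1: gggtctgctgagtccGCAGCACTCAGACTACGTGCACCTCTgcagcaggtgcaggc
Reads with and without these bases were summed into 1 row of the table, so the higher XBP1 level in the KD column says nothing of how much was spliced.

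**Figure D2:**
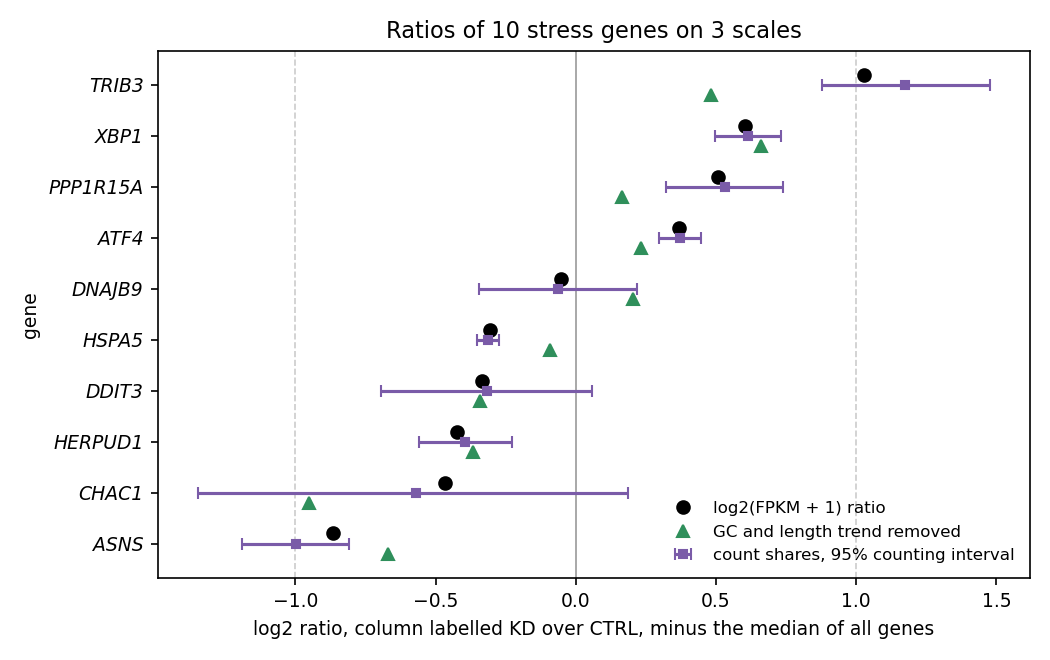
Log2 ratio, KD column over CTRL column, for the 10 genes, each minus the median of all genes on the same scale: log2(FPKM + 1) ratio (circles), ratio of count shares with its 95% exact binomial interval (squares) and the FPKM ratio adjusted for GC content and length (triangles). Dashed lines mark 1 and -1. TRIB3 lies furthest to the right and ASNS furthest to the left by FPKM, and DNAJB9 is on either side of 0.

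Base composition moved with these ratios. The 13298 genes with a GC content were split into 4 bins of like size, and the median log2 ratio ran from -0.25 in the bin of lowest GC content to 0.48 in the bin of highest. TRIB3 (62.3% GC), CHAC1 (61.2%) and PPP1R15A (59.0%) lie in that highest bin. Against its median, TRIB3 was 0.57 higher, PPP1R15A 0.04 higher and CHAC1 0.93 lower. ASNS (43.8% GC) and HSPA5 (45.6%) lie in the second bin, where the median was -0.12, and were 0.73 and 0.17 lower than it. After adjustment for GC content and length, TRIB3 was at 0.54, PPP1R15A at 0.22, ATF4 at 0.29, ASNS at -0.61, CHAC1 at -0.89 and HSPA5 at -0.03. XBP1, at 0.72, became the highest of the 10. Whether base composition accounts for any of these values was not tested.

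Scale also moved them. For 9 of the 10 genes the plain log2 ratio of FPKM lay within 0.1 of that of the undivided counts, although the column totals differ by a log2 ratio of 0.23. With counts divided by the column totals, where the median of all genes was -0.18, TRIB3 was at 0.91 and ASNS at -1.17. ATF4 was then at 0.16, XBP1 at 0.40, PPP1R15A at 0.31, HSPA5 at -0.52 and HERPUD1 at -0.59. Relative to that median the signs of the 10 genes were those of the FPKM ratios.

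**Figure D3:**
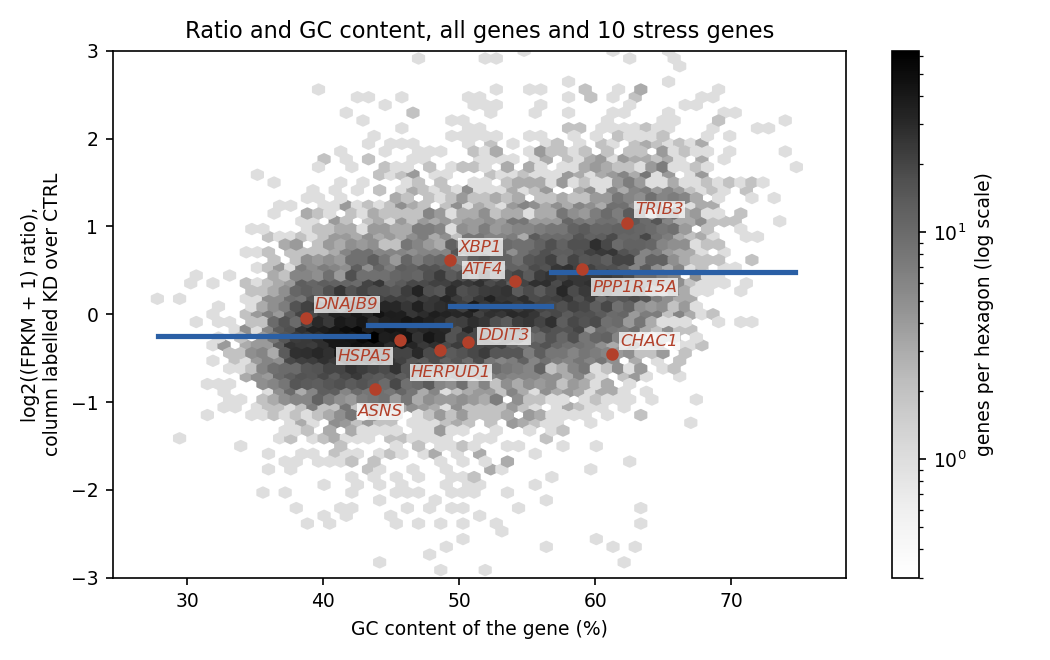
Log2((FPKM + 1) ratio) (KD column over CTRL column) against the GC content of the gene in percent, for 13298 genes (grey hexagons, darker for more genes) and the 10 genes (red). Blue bars give the median ratio in each GC bin, from -0.25 to 0.48, and 48 genes beyond 3 or -3 are not shown. CHAC1 and TRIB3 have a like GC content and opposite ratios.

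The other genes of the pathway were read from lists by role, each described by its count and median beside the values of all genes (a median of 0.01, with 8.51% at 1 or more and 3.27% at -1 or less). Of all 13741 genes, 7016 had a log2 ratio above 0. Of the 19 genes that set eIF2 activity, 8 had a log2 ratio above 0 and 11 below, with a median of -0.21 that became 0.04 after adjustment for GC content and length. EIF2B2, a subunit of the eIF2 exchange factor, was the only one past the fold, at an FPKM of 9.94 and 23.4 and a log2 ratio of -1.16, and stayed past it under each scale and adjustment given here. GCN1L1, which helps activate the kinase GCN2, was at -0.86 and EIF2B3 at -0.65. GCN1L1 was also past the fold with FPKM rescaled (-1.20) and after adjustment for GC content and length (-1.14). The highest were EIF2AK1, the heme-regulated eIF2 kinase, at 156 and 89.8 (0.79), PPP1CA, the catalytic subunit that PPP1R15A recruits (0.53), and EIF2B1 (0.19). The kinase PERK (EIF2AK3) was low, at an FPKM of 3.34 and 4.08. EIF2S2, a subunit of eIF2, had the highest mean level of the list, at 130.1 and 150.4 (-0.21).

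Of the 15 sensors, proteases and ligase subunits of the unfolded protein response, 11 passed the filter on mean FPKM and had a median of 0.07. ATF6B, the close relative of ATF6, was the only one past the fold, at an FPKM of 62.4 and 26.3, a log2 ratio of 1.21. It was at 0.86 with FPKM rescaled, 0.99 with counts divided by the column totals and 0.96 after adjustment for GC content and length. CREB3, another membrane-bound factor, was at 0.97 and CREB3L2 at 0.39. The lowest were ZBTB8OS (-0.55), a subunit of the ligase complex that rejoins XBP1 mRNA, CREB3L4 (-0.45) and C14orf166 (-0.36), which had the highest level, at 358 and 458. ERN1, which encodes IRE1, did not pass the filter, at an FPKM of 0.599 and 0.878 from 9 and 15 counts.

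The list of bZIP partners and stress factors had the highest median of the pathway lists, 0.81, with 10 of 16 genes above 0. At 1 or more were 4 of them: JUND (139 and 46.8, log2 1.55), FOS (5.25 and 1.33, log2 1.43), CEBPD (16.1 and 5.85, log2 1.32) and JUN (9.55 and 4.26, log2 1.003). Of these 4, JUND and FOS were still past the fold with FPKM rescaled, FOS and CEBPD with counts divided by the column totals, and FOS alone after adjustment for GC content and length. The median GC content of the list was 60.1%, against 49.3% over all genes that passed the filter, and its median was 0.36 once adjusted for GC content and length, below the 0.38 of the ER chaperones in that setting. NUPR1, a chromatin-binding stress protein, had the highest mean level, at 121 and 66.6 (0.85). The lowest were NFE2L2, the factor of the oxidative stress response (-0.52), ATF2 (-0.32) and CEBPG (-0.25), a partner of ATF4 on the CARE.

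The other ATF4 target genes were spread around 0, with 12 of 26 above 0, a median of -0.02, 0 at 1 or more and 1 at -1 or less. That gene was SLC7A11, the cystine importer, at an FPKM of 0.809 and 4.50 from 97 and 540 counts, a log2 ratio of -1.61. It was followed by SLC38A2, an amino acid importer (32.4 and 62.7, log2 -0.93), and PSPH, of serine synthesis (7.43 and 12.3, log2 -0.66). SLC38A2 was at -1.29 with FPKM rescaled and -1.16 with counts divided by the column totals. SLC7A11 stayed at -1 or less on both scales and after adjustment for GC content and length. The highest were PCK2 (0.67), JHDM1D (0.65) and the glutamine importer SLC1A5 (0.61). JHDM1D was at 1.09 after adjustment for GC content and length. SLC3A2, the most abundant, was at 283 and 268. Its log2 ratio was 0.08 by FPKM and 0.43 by counts divided by the column totals. Among 11 aminoacyl-tRNA synthetases, which ATF4 also raises under amino acid shortage, 8 were below 0, with a median of -0.28 that became -0.06 after adjustment for GC content and length. MARS (-0.71), CARS (-0.50) and TARS (-0.40) were lowest, and AARS (0.75), SARS (0.31) and YARS (0.00) highest. MARS was at -1.07 with FPKM rescaled and -0.85 with counts divided by the column totals. TARS had the highest level, at 434 and 574.

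ER chaperones and folding enzymes, the targets of the ATF6 and XBP1 arm, were above 0 for 19 of 25 genes, with a median of 0.23 and 3 genes past the fold. These were CRELD2 (9.37 and 2.35, log2 1.63), SDF2L1 (54.7 and 24.7, log2 1.12) and DNAJC1 (29.5 and 13.9, log2 1.03). CRELD2 alone of them was past it with FPKM rescaled, with counts divided by the column totals and after adjustment for GC content and length. UGGT1, at -0.11 by FPKM, was at -1.09 with counts divided by the column totals. HSPA5, which belongs with them by function, was on the other side, beside ERP44 and HYOU1 (each -0.42) and SDF2 (-0.23). CALR, the most abundant, was at 697 and 686 (0.02). With counts divided by the column totals 12 of the 25 were above 0, as were 5244 of all 13741 genes. The median of the list was then -0.04, with that of all genes at -0.18. With FPKM rescaled 9 of the 25 were above 0, as were 4350 of all 13741 genes. The median was then -0.13, with that of all genes at -0.30. After adjustment for GC content and length 21 of the 25 were above 0, as were 7353 of 13298 genes. The median was then 0.38, with that of all genes at 0.06.

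Genes of ER-associated degradation were split evenly, 14 above and 12 below 0 of 26, with a median of 0.01. TMUB1 (1.25) was past the fold, but was at 0.89 with FPKM rescaled, 0.90 with counts divided by the column totals and 0.39 after adjustment for GC content and length. It was followed by DERL3 (0.99) and TMUB2 (0.80), while RNF139 (-0.96), EDEM1 (-0.55) and DERL2 (-0.48) were lowest. RNF139 was past the fold with FPKM rescaled (-1.28) and with counts divided by the column totals (-1.30). After adjustment for GC content and length it was at -0.64. RNF5, the most abundant, was at 101 and 110.04 (-0.12). The translocon and the machinery of ER entry and exit gave 14 above and 14 below 0, with a median of -0.01. SEC11C, a subunit of signal peptidase, was past the fold (56.9 and 20.7, log2 1.42), though at 0.95 with counts divided by the column totals, followed by SSR4 (608 and 366, log2 0.73), the most abundant, and SEC11A (0.53). SAR1A (-0.56), SPCS1 (-0.36) and SRP54 (-0.36) were lowest. The cell death genes linked to CHOP spread widely around a median of -0.05. Of 12, BBC3 (PUMA, 9.42 and 1.79 from 167 and 27 counts, log2 1.90), BCL2L1 (79.6 and 29.9, log2 1.38) and DAPK3 (1.06) were past the fold, while PMAIP1 (NOXA, -0.95), MCL1 (-0.90) and CASP4 (-0.86) were lowest. BBC3 and BCL2L1 were also past the fold on the other scales and after adjustment for GC content and length, and DAPK3 was not. PMAIP1, MCL1 and CASP4 were at -1 or less with FPKM rescaled and with counts divided by the column totals. BAX had the highest mean level, at 77.8 and 45.9 (0.75). BBC3 and PMAIP1 both promote cell death and BCL2L1 and MCL1 both restrain it in their main forms, and each pair stood on opposite sides of 0.

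**Figure D4:**
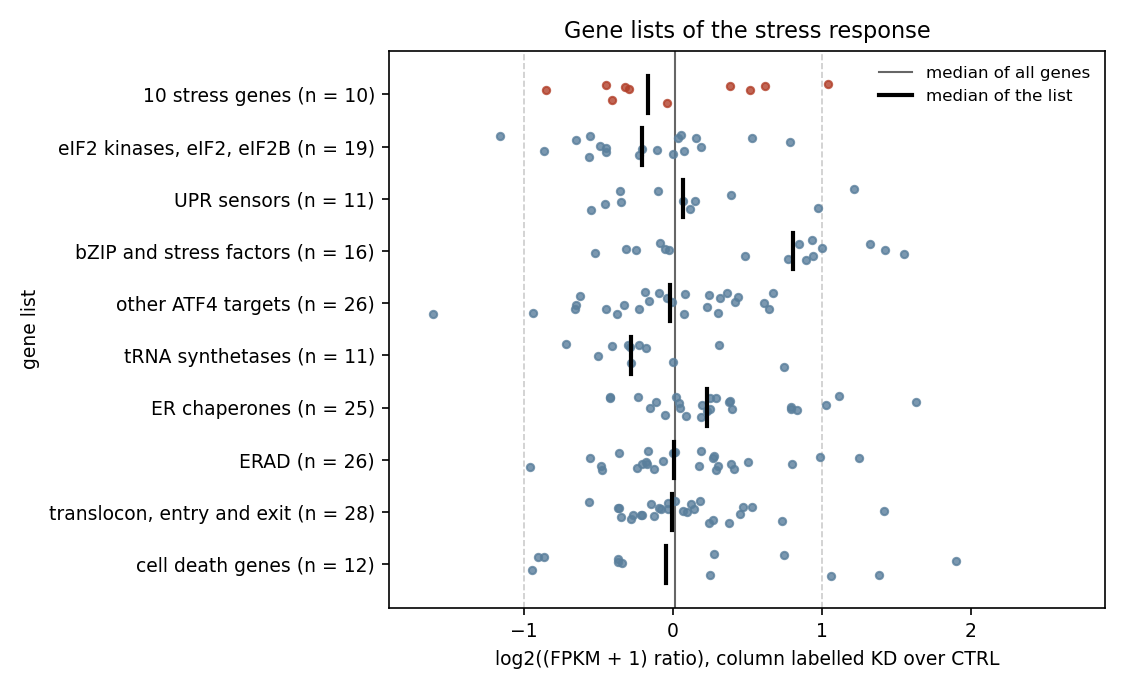
Log2((FPKM + 1) ratio) of the column labelled KD over CTRL for each gene with a mean FPKM of at least 1 in the 10 genes (red) and in the lists of pathway genes (blue). Black bars are list medians, the grey line is the median of all genes (0.01) and dashed lines mark 1 and -1. The bZIP list has the highest median of those shown, at 0.81.

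Pseudogenes named after the 10 genes could take reads from them. The table holds 9 such rows, of which 7 had 0 counts in both columns, and the largest count among them was 4, for XBP1P1.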

How the data were processed

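K562 pools were grouped by the sample titles, 3 with αCP1/2 siRNAs and 3 with control siRNAs. The authors mapped reads with TopHat 1.4.1 to hg19 with Ensembl gene models and deposited FPKM values from Cuffdiff 2.2.0 (versions per the submitters' processing notes). The deposited table holds 1 FPKM and 1 estimated count for every gene in each group. Which pools entered these values, and how they were joined or scaled, is not given in the sources used here. The authors' averages, fold changes and p-values were not used. The members and gene lists were chosen with earlier results of these data known.

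Ratios used a pseudocount of 1 and kept genes whose mean FPKM reached 1. The adjustment for GC content and length subtracted a least-squares trend, quadratic in GC content and in log2 length. No test was run on 1 value per group. Intervals were 95% exact binomial or Poisson on rounded counts, and no ratio of count shares was given where both counts were 3 or fewer. All 10 genes were named, and from each list the 3 highest and 3 lowest ratios and the highest mean FPKM; others were named after their values were seen. GC content and length were medians over GENCODE release 44 transcripts on GRCh37. Functions were tested on simulated data. The 8 alternatives are described in the closing section. Computation used scipy 1.17.1, pandas 2.3.3 and numpy 2.4.6 under Python 3.11.15, with figures from matplotlib 3.10.9.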

Additional observations from a re-analysis of the deposited data

How the results depend on the processing

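The ratios were recomputed with 8 alternatives: FPKM rescaled to the same sum in both columns, counts divided by the column total, adjustment for GC content and length, a pseudocount of 0.1, a stricter filter (FPKM over 5 in 1 column or both), no filter, centring on the median of all genes, and summing of rows that share a symbol. Of the 10 genes, 9 kept their sign in each alternative that gave them a value (7 for CHAC1), also relative to the median of all genes, and DNAJB9 changed sign after adjustment for GC content and length. The number of genes at a log2 ratio of 1 or more was 0 with FPKM rescaled, with counts divided by the column total and after that adjustment, because TRIB3 fell to 0.72, 0.91 and 0.54. The number at -1 or less was 1 with FPKM rescaled and with counts divided by the column total, where ASNS was at -1.20 and -1.17. The median of the 10 genes was -0.50 with FPKM rescaled, where all genes had -0.30. It changed sign, to 0.09, after adjustment for GC content and length, where all genes had 0.06. It was -0.04 under the stricter filter. Under the rescaled FPKM 4.37% of all genes were at 1 or more and 8.81% at -1 or less, and under counts divided by the column total 4.66% and 5.84%. With a pseudocount of 0.1, 791 genes in all were at -1 or less, against 450, and the stricter filter left 292, with no value for CHAC1. After adjustment for GC content and length 773 genes were at 1 or more, against 1169. Summing of rows changed none of the 10, since each has 1 row. No paired analysis was possible because each group has a single value for a gene, and no single pool could be left out. Depth limited CHAC1 most, with 26 and 38 counts.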

Other observations

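All genes that carry the same promoter letters were read in the same way, as a description. Of the genes with an exact ERSE in the window, 15 reached a mean FPKM of 1, XBP1 and HSPA5 among them, with a median log2 ratio of 0.13 and 9 above 0. ALG12, a mannosyltransferase of ER glycosylation, was the highest of them, with 10.2 (KD) and 2.48 (CTRL), a log2 ratio of 1.68, followed by CRELD2 (1.63). CALR (0.02), HSP90B1 (-0.05), CANX (0.23) and PDIA6 (0.25), all abundant ER folding factors with an ERSE, lay between ALG12 and HSPA5 (-0.29). FICD, which modifies BiP, was at 3.05 and 3.28 (-0.08). These genes were named after their values were seen.

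The 14 genes with an ERSE-II had a median of -0.27 with 4 above 0, and ran from PLS3 (49.8 and 115.5, log2 -1.20) to SDF2L1 (1.12). HERPUD1 and HYOU1, at -0.41 and -0.42, are both in this group. The 225 genes with a CARE in the window had a median of -0.07, with 5.33% at 1 or more and 2.22% at -1 or less, against 8.51% and 3.27% of all genes. The 103 genes with a UPRE had a median of 0.00. After adjustment for GC content and length the medians were 0.24 for the ERSE, -0.31 for the ERSE-II, 0.02 for the CARE and 0.13 for the UPRE, with that of all genes at 0.06.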
